A study of Mus musculus with 16 samples.

Results

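The genes described here are Nnt and 9 genes that act with it in the antioxidant defence of mitochondria, namely Sod2, Prdx3, Prdx5, Txn2, Txnrd2, Gpx1, Gpx4, Cat and Idh2. They were chosen by name and looked up by symbol in the gene table, where all 10 of them were found among 51912 genes. All 10 passed the filter on low counts, as did 20159 genes in all. The table comes from RNA sequencing of the ventricles of neonatal mice, 16 libraries in all, in a study of heart regeneration without Lrrc10, which encodes a cardiomyocyte protein. Wild-type (WT) mice were C57BL/6J from the Jackson Laboratories, and knockout (KO) mice were Lrrc10-/- on a C57BL/6 background whose substrain is not given in the sources used here. The deletion is whole-body, so no cell type of the KO mice keeps the gene. Mice underwent a sham operation (SH) or a myocardial infarction (MI, by ligation of the left anterior descending artery) at postnatal day 1, and the whole ventricles were collected 7 days later. Genotype and surgery together gave the 4 groups (WT SH, WT MI, KO SH, KO MI) of 4 libraries, numbered 1 to 4 in the labels except in KO MI, where they are 1, 2, 3 and 7. The labels do not name the animal behind each library, so p-values measure the spread between libraries.

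Mitochondria release superoxide as a by-product of respiration. SOD2 in the matrix turns it into hydrogen peroxide, which peroxiredoxins (PRDX3, PRDX5) and glutathione peroxidases (GPX1, GPX4) reduce to water, while catalase (CAT) acts mainly in peroxisomes. The peroxiredoxins are recharged by thioredoxin 2 and its reductase (TXN2, TXNRD2), and both systems draw their electrons from NADPH. In the matrix NADPH is made by the transhydrogenase NNT, which uses the proton gradient, and by the isocitrate dehydrogenase IDH2. The heart is rich in mitochondria and relies on this supply. C57BL/6J, the strain of the mouse reference genome, is known to carry a deletion of several Nnt exons that other C57BL/6 substrains lack, which is why Nnt is a marker of substrain.

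Total counts per library ranged from 33783874 to 57470159, and the ranges of the groups overlapped. Lrrc10 had between 26.3 and 35.6 CPM (counts scaled to a common library size with TMM factors) in the 8 WT libraries and 0 counts in all 8 KO libraries. Although the labels describe the groups as balanced for sex, Xist, the RNA that marks the inactive X chromosome, was low in all 4 WT SH libraries (6.18 to 9.77 CPM), whereas it was high in libraries 1 and 2 of KO SH, 2 and 4 of WT MI and 1 and 2 of KO MI (919 to 985 CPM). The KO MI libraries differed most from each other. Summed skeletal muscle markers were 67.1 CPM in KO MI replicate 2 and 106.5 CPM in replicate 7 against 1.3 to 12.1 CPM in the other 14 libraries, and summed atrial markers reached 2428 CPM in KO MI replicate 2. Cardiomyocyte markers summed to 25370 to 39850 CPM in all libraries, and those of adipocytes and thymocytes to at most 11.9 CPM and 2.35 CPM.

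In the plain order of abundance, as mean CPM per kb of the main transcript over the 16 libraries, Idh2 stood far above the rest at 329 ± 19.5 (SD). Cat (40.3 ± 3.04) and Gpx4 (37.3 ± 3.58) followed, then Gpx1 (26.4 ± 5.08). Sod2 (18.4 ± 2.22), Prdx3 (17.6 ± 2.25), Txn2 (17.5 ± 1.54), Nnt (16.4 ± 6.63) and Prdx5 (13.2 ± 1.70) formed a group whose ranges overlapped from one to the next. Txnrd2 was the least abundant at 2.75 ± 0.288. The library ranges separated Idh2 from Cat and Prdx5 from Txnrd2, whereas every other pair of neighbours in this order overlapped. Nnt had the widest range of CPM per kb relative to its mean, from 8.46 to 32.5. Its place in the order changed with the group, from a mean of 24.4 ± 7.88 CPM per kb in WT SH, above Sod2, Txn2 and Prdx3, to 11.8 ± 3.11 CPM per kb in KO MI, next to Prdx5 (SD, n = 4 each).

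Nnt (ENSMUSG00000025453) lies on the minus strand of chr13:119470859-119566380 in GRCm39, the build of the table. GENCODE M39 lists 61 transcript models for it, 59 of them coding, and the longest coding sequence has 835 codons and is shared by 16 models. The table holds 1 total per gene and no values for single exons, so which allele a mouse carried was not analysed here. In WT SH, Nnt had 51.7, 121, 102 and 87.6 CPM in replicates 1 to 4. In KO SH it had 46.8, 40.1, 54.4 and 44.5 CPM. After MI it had 79.1, 64.8, 57.5 and 49.4 CPM in WT MI and 58.5, 31.4, 39.3 and 46.4 CPM in KO MI (replicates 1, 2, 3 and 7). Of the WT SH libraries, 3 lay above every other library of the series, and the remaining one, replicate 1, lay inside the range of KO SH. The groups WT MI and KO MI overlapped as well.

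**Figure D1:**
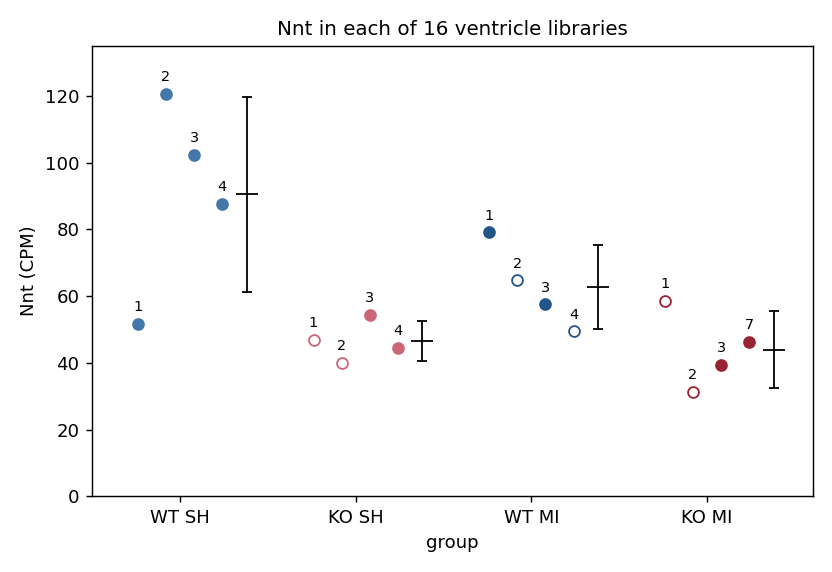
Nnt in CPM (y axis) in the 4 libraries of each group (x axis), numbered by replicate, with open circles for libraries with over 900 CPM of Xist and black bars for the mean ± SD. WT SH replicate 1, at 51.7 CPM, sits with the KO SH libraries, while the other WT SH libraries lie between 87.6 and 121 CPM.

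From lowest to highest, the group means of Nnt were 43.9 ± 11.5 CPM (KO MI), 46.5 ± 6.02 CPM (KO SH), 62.7 ± 12.6 CPM (WT MI) and 90.6 ± 29.2 CPM (WT SH) (SD, n = 4 each). The ranges of all neighbours in this order overlapped. Of the 4 comparisons between groups, Nnt was called in KO SH against WT SH. The sham-operated KO level was 0.514 of the WT level, a log2 fold change of -0.96 (SE 0.21, 95% interval -1.41 to -0.51) with an adjusted p of 0.0121 (quasi-likelihood F-test of edgeR, p adjusted by Benjamini-Hochberg). A gene was called when this adjusted p was under 0.1 and the absolute log2 fold change at least 0.5. A two-sided exact permutation test of the log2 values (CPM + 0.05) gave p = 0.0571, where the smallest p for 4 libraries against 4 is 0.0286, because WT SH replicate 1 is within the KO SH range. Leaving out WT SH replicate 1, the lowest of its group, necessarily widened the difference (log2 fold change -1.15, adjusted p = 0.00183, edgeR). Without WT SH replicate 2, the highest, the log2 fold change was -0.79 (adjusted p = 0.0456, edgeR), still a call. All 20 alternative settings kept the call, with log2 fold changes from -1.15 to -0.79 and adjusted p from 0.00170 to 0.0473 (edgeR or DESeq2). Those that changed only a threshold reused the main fit.

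The difference was smaller after MI and did not pass the test. Nnt in KO MI was 0.700 of its level in WT MI, a log2 fold change of -0.51 (SE 0.21, 95% interval -0.96 to -0.07) with an adjusted p of 0.307 by edgeR and an exact permutation p of 0.0857. Averaged over both surgeries, Nnt was lower in KO by -0.74 on the log2 scale (SE 0.15, adjusted p = 0.00498, edgeR), which is a call. The KO effect after MI was not shown to differ from that after sham surgery, as the interaction was 0.45 (SE 0.30, 95% interval -0.19 to 1.08, adjusted p = 0.538, edgeR). MI itself gave -0.53 in WT (SE 0.21, adjusted p = 0.208, edgeR) and -0.08 in KO (SE 0.21, adjusted p = 0.855, edgeR). The value in WT rested on the spread of WT SH. Without WT SH replicate 1, the lowest of its group, it was -0.72 and passed the test (adjusted p = 0.059, edgeR). Without WT SH replicate 2, the highest, it was -0.36 and did not pass (adjusted p = 0.476, edgeR).

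Nnt also stood out by its spread among libraries of 1 group. The SD of its log2 CPM within groups was 0.37, larger than that of 98.5% of the 7204 genes with a mean of at least 10 CPM. The highest library exceeded the lowest by 2.33-fold in WT SH, 1.60-fold in WT MI, 1.87-fold in KO MI and 1.36-fold in KO SH. Nnt had 1483 to 4514 counts per library. Among the other genes, Gpx1 (0.23, larger than 95% of genes) and Prdx3 (0.22, larger than 93.5%) had the next largest SD, in both cases mainly through KO MI, whereas that of Idh2 was 0.08.

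The cell make-up of a ventricle and the RNA per cell cannot be told apart in bulk tissue. WT SH replicate 1, the WT SH library with the least Nnt, had the highest sum of the 7 cardiomyocyte markers (39850 CPM, against 28190 to 33510 in the other WT SH libraries). These markers summed to 27140 to 28060 CPM in KO SH, below every WT SH library, and the 13 genes taken as a reference for mitochondrial mass (respiratory chain subunits, citrate synthase, VDAC1 and TOM20) summed to 5085 to 6268 CPM in WT SH, against 4905 to 5252 CPM in KO SH. All 13 of these had a negative log2 fold change in KO SH, with a median of -0.15. Of them, 2 passed an adjusted p under 0.1 by edgeR, against 7.22% of all genes that passed it and were lower. The part of these shifts in the Nnt difference was not tested. With log2 CPM of Xist as a covariate, the log2 fold change of Nnt in KO SH was -0.85 (adjusted p = 0.0473, edgeR). Among the KO SH libraries, Nnt was 46.8 and 40.1 CPM where Xist was high and 54.4 and 44.5 CPM where it was low.

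The 3 protein-coding genes that start within 500 kb of Nnt did not share its pattern in KO SH. Paip1, a translation factor gene that overlaps the start of Nnt on the opposite strand, ranged from 31.9 to 35.8 CPM over all 16 libraries, and its log2 fold change between KO SH and WT SH was 0.00 (SE 0.05, adjusted p = 0.977, edgeR). 4833420G17Rik had 0.23 (adjusted p = 0.168, edgeR) and Tmem267 had 0.64 (adjusted p = 0.167, edgeR) in the same comparison. Of 3 genes known to differ in level between C57BL/6 substrains, Entpd4, a nucleotidase of the Golgi, was called lower in KO both after sham surgery (-0.59, SE 0.14, adjusted p = 0.0179, edgeR) and after MI (-0.65, SE 0.14, adjusted p = 0.0208, edgeR). It had 23.4, 16.2, 31.7 and 24.1 CPM in WT SH, 14.8 to 16.6 CPM in KO SH, 22.8 to 29.6 CPM in WT MI and 13.8 to 17 CPM in KO MI. After MI the groups were fully separate, and after sham surgery WT SH replicate 2, the library with the most Nnt, fell within KO SH. Without WT SH replicate 3 the change after sham surgery was -0.42 (adjusted p = 0.0560, edgeR) and under the fold limit of a call. The near-identical gene Entpd4b has the same counts in every library, so the reads of the pair cannot be assigned to one of them. Wdfy1 was -0.25 in KO SH (adjusted p = 0.0455, edgeR) and -0.07 in KO MI (adjusted p = 0.768, edgeR), and Ide was 0.15 (adjusted p = 0.117, edgeR) and -0.12 (adjusted p = 0.410, edgeR).

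Among the 5 genes whose log2 CPM followed that of Nnt most closely over the 16 libraries, out of 14589 compared, were Man2a2 (Pearson's r = 0.86), Rbm38 (0.85), Zfp933 (0.84) and Dgat2 (0.84), given as a description. The libraries share depth and group, and within groups r was between 0.61 and 0.85 for these 4 genes. Dgat2, an enzyme of triglyceride synthesis, had 15.1, 29.3, 18.5 and 19.3 CPM in WT SH, and like Nnt it was lowest in replicate 1 and highest in replicate 2. These 4 genes were picked for their r with Nnt in these same libraries. That choice favours a high r within groups and a shared order of libraries. The 9 other antioxidant genes were not picked in this way, so their r is not comparable with that of the 4. Among the 9, r with Nnt ran from -0.15 (Gpx1) to 0.65 (Sod2) over all libraries, but within groups from -0.21 (Prdx5) to 0.14 (Prdx3).

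Of the 10 genes, 5 passed an adjusted p under 0.1 in KO SH against WT SH, all lower in KO, against 12.3% of all genes tested and 7.22% that were lower. These were Nnt, Sod2, Prdx5, Txn2 and Gpx4. Nnt alone also passed the fold limit (1 of 10, against 5.01% of all genes). The median log2 fold change of the 10 genes was -0.20, and that of all genes was 0.01. In the same comparison the 7 cardiomyocyte markers were all lower in log2 fold change (median -0.19, with 4 of 7 passing the adjusted p), beside the median of -0.15 of the mitochondrial mass reference, and the part of these shifts in the values of the 10 genes was not tested. RefSeq gives promoter windows for 9 of the 10 genes (12 windows, build GRCm38.p6), and the 250 bases upstream of the start are shown for the 4 genes that were lower beside Nnt, since they moved in the same comparison. They lie at chr17:13007589-13007838 (plus strand, Sod2), chr19:6910107-6910356 (minus strand, Prdx5), chr15:77928995-77929244 (minus strand, Txn2) and chr10:80053315-80053564 (plus strand, Gpx4, the second of its 4 windows), and capitals mark the motifs found.
Sod2: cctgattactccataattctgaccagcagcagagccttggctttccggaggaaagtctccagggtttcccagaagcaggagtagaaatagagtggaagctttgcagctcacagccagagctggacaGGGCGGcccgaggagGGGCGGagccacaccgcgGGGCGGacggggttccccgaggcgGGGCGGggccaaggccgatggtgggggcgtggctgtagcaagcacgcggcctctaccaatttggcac
Prdx5: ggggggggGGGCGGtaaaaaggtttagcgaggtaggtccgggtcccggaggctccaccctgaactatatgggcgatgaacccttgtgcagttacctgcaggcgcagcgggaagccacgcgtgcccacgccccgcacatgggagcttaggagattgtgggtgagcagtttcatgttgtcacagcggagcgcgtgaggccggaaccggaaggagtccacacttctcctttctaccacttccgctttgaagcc
Txn2: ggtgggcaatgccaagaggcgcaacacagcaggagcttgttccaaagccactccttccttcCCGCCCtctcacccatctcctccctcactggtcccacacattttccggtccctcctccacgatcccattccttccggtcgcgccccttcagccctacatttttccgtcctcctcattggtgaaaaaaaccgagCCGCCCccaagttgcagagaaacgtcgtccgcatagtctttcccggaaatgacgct
Gpx4: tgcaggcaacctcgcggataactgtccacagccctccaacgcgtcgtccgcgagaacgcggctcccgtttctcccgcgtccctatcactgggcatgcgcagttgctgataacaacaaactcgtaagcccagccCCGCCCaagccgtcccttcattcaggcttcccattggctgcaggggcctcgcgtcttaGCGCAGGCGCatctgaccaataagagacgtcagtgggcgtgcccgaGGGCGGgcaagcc
The motifs searched on both strands were the GC box GGGCGG, the antioxidant response element core TGACNNNGC bound by NRF2, the element TCAAGGTCA of estrogen-related receptors and a core of the site of nuclear respiratory factor 1, in which GCGC occurs again after any 2 bases. The GC box was present in 10 of the 12 windows, against 32.7% of the 32851 RefSeq promoter windows of the same length. These 10 windows belong to 8 of the 9 genes, all 4 shown among them. Windows 2 and 3 of Gpx4 overlap and share their GC boxes, which are thus counted in both. Sod2 held 4 copies. The antioxidant response element core (10.2%) and the element of estrogen-related receptors (0.387%) were in 0 of the 12 windows of the 9 genes. The core of the nuclear respiratory factor 1 site (4.98%) was in 2 of the 12 windows, both of Gpx4, among them the one shown. These are the overlapping windows, and they hold the same 1 site.

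Sod2, the superoxide dismutase of the matrix, had 127, 121, 131 and 119.5 CPM in WT SH and 102, 106, 103 and 97.8 CPM in KO SH. Every WT SH library was above every KO SH library, and the log2 fold change was -0.29 (SE 0.07, adjusted p = 0.0209, edgeR). After MI Sod2 had 109.9, 113, 125 and 117 CPM in WT MI and 109, 89.6, 107 and 84.0 CPM in KO MI. Here too the groups did not overlap, although by a narrow margin, and the share of all genes with separate groups is not reported here. The log2 fold change of Sod2 was -0.26 (SE 0.07, adjusted p = 0.0844, edgeR). It was the 1 gene of the 10 that passed the adjusted p in both KO against WT comparisons. After MI the adjusted p was over the threshold, from 0.107 to 0.247, when any one of 6 of the 8 libraries compared was left out, although the log2 fold change stayed between -0.28 and -0.19 in these fits, and without KO MI replicates 2 and 7 it was -0.12 (adjusted p = 0.422, edgeR).

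Prdx5, a peroxiredoxin found in mitochondria, peroxisomes and cytosol, had 28.2, 23.0, 24.9 and 20.4 CPM in WT SH and 18.5, 19.0, 19.9 and 20.1 CPM in KO SH. The groups were separate by a small gap between WT SH replicate 4 and KO SH replicate 4, and the log2 fold change was -0.32 (SE 0.08, adjusted p = 0.0258, edgeR). Without WT SH replicate 1, the highest, it was -0.23 (adjusted p = 0.101, edgeR). Txn2, the thioredoxin that reduces PRDX3 in the matrix, had 42.3, 44.9, 42.7 and 40.4 CPM in WT SH and 36.6, 38.4, 35.5 and 33.8 CPM in KO SH. The groups did not overlap, with a log2 fold change of -0.24 (SE 0.07, adjusted p = 0.0450, edgeR), and the adjusted p was 0.127 without WT SH replicate 2 and 0.131 without KO SH replicate 4. Gpx4, which reduces lipid peroxides in membranes and guards cells from ferroptosis, had 38.6, 39.1, 38.2 and 37.2 CPM in WT SH and 32.3, 34.8, 32.9 and 28.9 CPM in KO SH. It was lower in every KO SH library (log2 fold change -0.25, SE 0.08, adjusted p = 0.0591, edgeR), and the adjusted p ranged from 0.105 to 0.176 when WT SH replicate 1, 2 or 3 or KO SH replicate 1 or 4 was left out. With Xist as a covariate all of these kept an adjusted p under 0.1, at -0.32 for Sod2, Prdx5 and Txn2 and -0.33 for Gpx4. Each of the 4 genes reached the smallest exact permutation p, 0.0286, as any gene with fully separate groups does. The sham groups were fully separate for 18.5% of all genes.

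**Figure D2:**
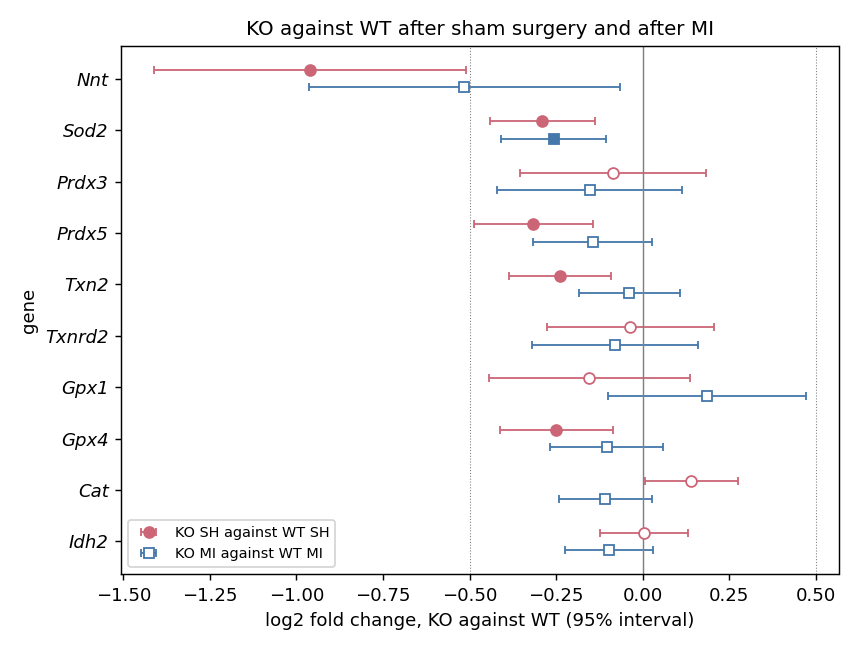
Log2 fold change of KO against WT (x axis, with 95% intervals) of the 10 genes (y axis) after sham surgery (circles) and after MI (squares), filled where the adjusted p was under 0.1 and with dotted lines at the fold limit of 0.5 in either direction. After sham surgery Nnt, Sod2, Prdx5, Txn2 and Gpx4 are filled on the side of lower expression in KO, and after MI Sod2 is the filled one.

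The other 5 genes did not pass the adjusted p after sham surgery. Cat had 97.4 to 104 CPM in WT SH and 112 to 113 CPM in KO SH, so that every KO library was higher (log2 fold change 0.14, SE 0.06) with an adjusted p of 0.202 by edgeR. When the fit held the 8 sham libraries alone, Cat passed as well (0.14, adjusted p = 0.0361, edgeR). Fully separate groups, in either direction, were seen for 5 of the 10 genes, and for 18.5% of all genes. Gpx1 was -0.15 (adjusted p = 0.548), Prdx3 was -0.09 (adjusted p = 0.739), Txnrd2 was -0.04 (adjusted p = 0.893) and Idh2 was 0.00 (adjusted p = 0.977, all edgeR). Idh2, like Nnt a source of NADPH in the matrix, had 558 to 604 CPM in KO SH, inside its 526 to 637 CPM in WT SH. Prdx3 and Txnrd2 overlapped between the groups as well.

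After MI, 0 of the 10 genes were called between KO and WT by edgeR (1.73% of all genes), and 0 by DESeq2. With the adjusted p alone Sod2 passed (1 of 10, against 3.07% of all genes), and Nnt and Sod2 had an unadjusted p under 0.05. The log2 fold changes beside those of Nnt and Sod2 ran from -0.15 (Prdx3) to 0.19 (Gpx1), with adjusted p of at least 0.520 by edgeR. Of the 10 genes, 9 had a negative value, with a median of -0.11 against 0.01 for all genes. KO MI replicate 7 was the lowest of its group for Prdx3 (15.7 CPM, against 24.5 to 27.9), Prdx5 (17 against 19.0 to 20.3), Txn2 (31.7 against 38.4 to 40.8), Gpx1 (20.6 against 32.6 to 41.3) and Gpx4 (28.0 against 36.8 to 37.6). This library also had the lowest sum of the mitochondrial mass reference, 4043 CPM against 4851 to 6268 CPM in the other 15 libraries, and the most skeletal muscle marker RNA. Without it, Gpx1 passed the adjusted p in KO MI against WT MI (0.35, adjusted p = 0.0115, edgeR), and without replicates 2 and 7 it did so at 0.27 (adjusted p = 0.0822, edgeR).

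**Figure D3:**
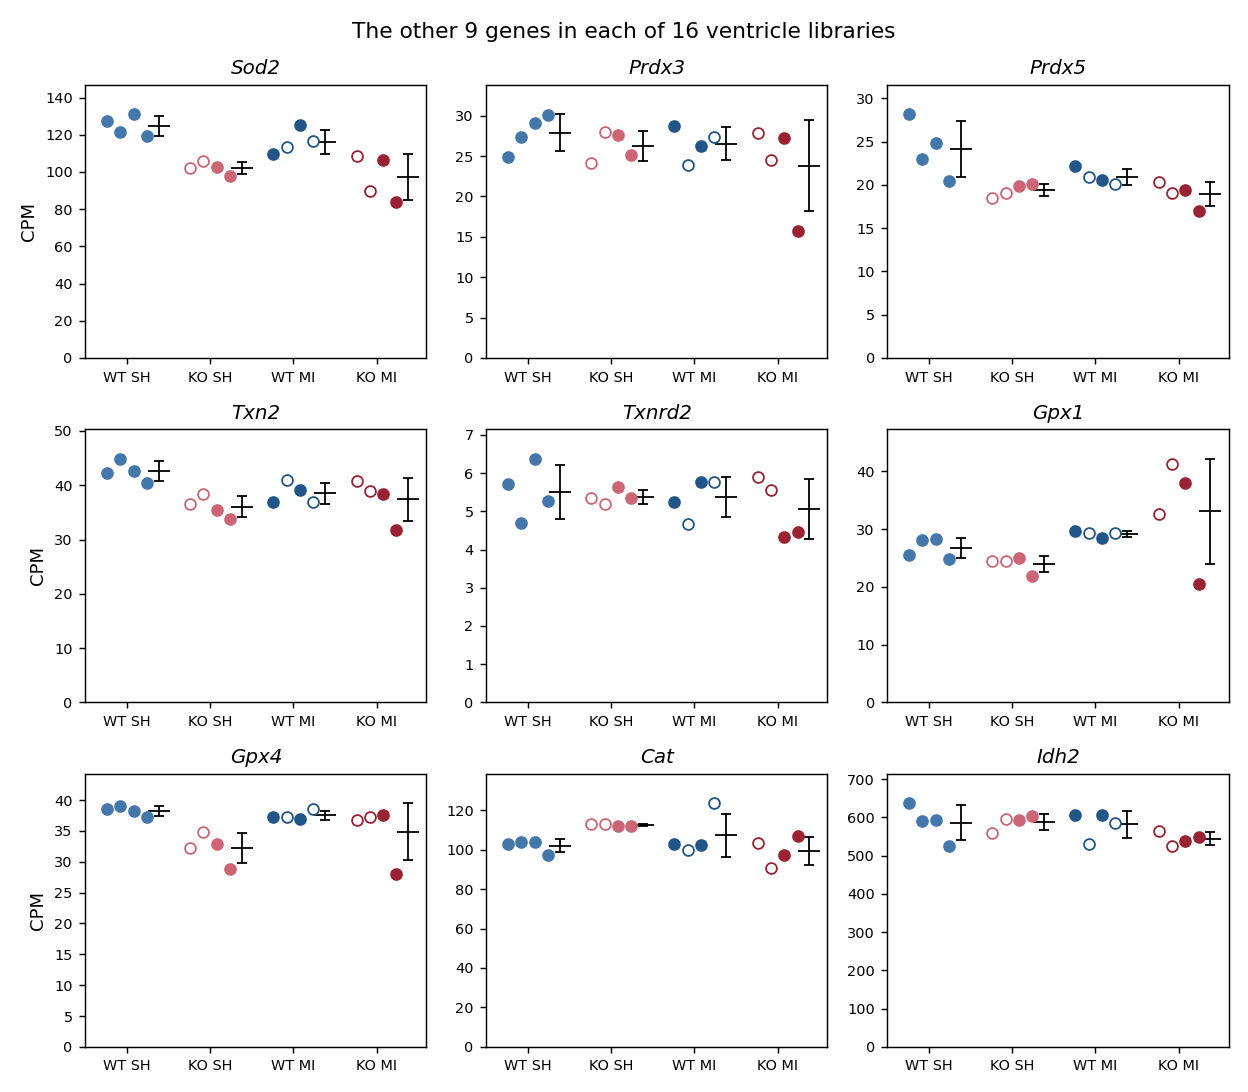
Expression in CPM (y axes, from 0) of the other 9 genes in the 4 libraries of each group (x axes), with open circles for libraries with over 900 CPM of Xist and black bars for the mean ± SD. The KO SH circles of Sod2, Prdx5, Txn2 and Gpx4 lie below all those of WT SH, and 1 KO MI circle, replicate 7, lies apart at the bottom for Prdx3, Gpx1 and Gpx4.

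The response to MI was examined within each genotype. In WT, 0 of the 10 genes were called (2.78% of all genes) and 0 passed the adjusted p (5.31%) by edgeR, and DESeq2 gave 0 for both. Nnt and Prdx5 had an unadjusted p under 0.05, with Prdx5 at -0.21 (adjusted p = 0.203, edgeR). Gpx1 was the 1 gene whose groups did not overlap (12.1% of all genes), with 24.8 to 28.3 CPM in WT SH and 28.4 to 29.7 CPM in WT MI (log2 fold change 0.13, adjusted p = 0.693, edgeR). In KO, 0 of the 10 were called by edgeR (7.42% of all genes) or DESeq2, while Gpx1 and Cat passed the adjusted p (2 of 10, against 17.5% of all genes). Without KO MI replicate 7, Gpx4 passed it as well (0.21, adjusted p = 0.0113, edgeR).

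Gpx1, the cytosolic and mitochondrial glutathione peroxidase, had 24.5, 24.4, 25.0 and 22.0 CPM in KO SH and 32.6, 41.3, 38 and 20.6 CPM in KO MI. It was higher in 3 KO MI libraries than in any other library of the series and lowest of all in replicate 7. The log2 fold change between KO MI and KO SH was 0.47 (SE 0.14, adjusted p = 0.0348, edgeR), with an exact permutation p of 0.143. It was called at 0.64 without KO MI replicate 7 (adjusted p = 7.80e-05, edgeR) and at 0.55 without replicates 2 and 7 (adjusted p = 0.000276, edgeR), whereas the adjusted p was 0.138 without KO MI replicate 2 and 0.110 without replicate 3. Gpx1 is also abundant in red blood cells. The 6 erythroid markers measured (among them the globin genes Hba-a1 and Hbb-bt and the haem synthesis gene Alas2) summed to 420, 512, 331 and 158 CPM in KO MI replicates 1, 2, 3 and 7, and to 172 to 303 CPM in the other 12 libraries. The same 3 KO MI libraries were thus high and the same one low for Gpx1 and for these markers. Of the markers, 5 of 6 were called higher in KO MI than in KO SH, where 7.42% of all genes were called in either direction. Macrophage markers, of which 5 of 6 were also called higher, summed to 45.9 to 97.4 CPM in KO MI and 39.3 to 47.4 CPM in KO SH. The part of either cell type in the Gpx1 values was not tested.

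**Figure D4:**
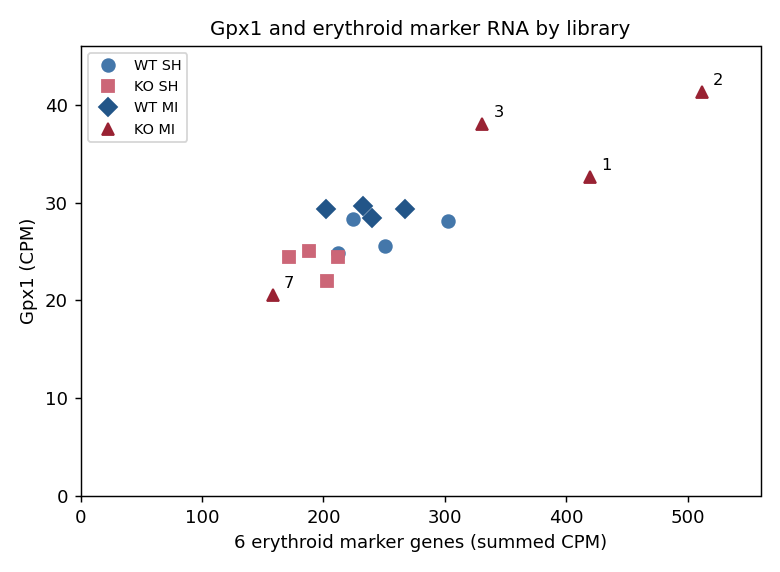
Gpx1 in CPM (y axis) against the summed CPM of 6 erythroid marker genes (x axis) in the 16 libraries, with KO MI libraries numbered by replicate. KO MI replicates 1, 2 and 3 lie apart at high values of both, and KO MI replicate 7 lies at the lowest values of both.

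Cat had 112 to 113 CPM in KO SH and 104, 90.6, 97.4 and 107 CPM in KO MI. Every KO MI library was lower (log2 fold change -0.18, SE 0.06, adjusted p = 0.0836, edgeR), while the share of all genes with separate groups is not reported here. The adjusted p was over 0.1 without any one of 6 of the 8 libraries, between 0.146 and 0.254, and 0.117 without KO MI replicates 2 and 7. The interaction, which sets the KO effect after MI against that after sham surgery, called 0 of the 10 genes by edgeR, where 0.0248% of all genes were called, and 0 by DESeq2. Cat had the 1 unadjusted p under 0.05 there (-0.25, SE 0.09, adjusted p = 0.252, edgeR). The number of interactions called depended on the libraries and the tool, with 5 of all genes in the fit of all libraries, 840 without KO MI replicate 7, 169 without WT SH replicate 4 and 289 by DESeq2. Without KO MI replicate 7, 1816 of all genes and 4 of the 10 passed the adjusted p: Gpx1 (0.51, adjusted p = 0.0133), Txn2 (0.27, adjusted p = 0.0523), Gpx4 (0.24, adjusted p = 0.0731) and Cat (-0.28, adjusted p = 0.0735, all edgeR). Nnt did not pass with that library or without it.

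Over both surgeries, the same 5 genes as after sham surgery were lower in KO with an adjusted p under 0.1 (against 11.5% of all genes, 6.82% lower), and Nnt was again the 1 gene called (3.71% of all genes). Sod2 was -0.27 (SE 0.05, adjusted p = 0.00242), Prdx5 -0.23 (SE 0.06, adjusted p = 0.0197), Gpx4 -0.18 (SE 0.06, adjusted p = 0.0585) and Txn2 -0.14 (SE 0.05, adjusted p = 0.0992), all by edgeR. Nnt, Sod2 and Prdx5 kept an adjusted p under 0.1 without any one of the 16 libraries, Gpx4 without any one of 13 of them and Txn2 without any one of 4.

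Among the other genes that supply NADPH or carry it to peroxide, Me3 had the clearest difference. It encodes the mitochondrial malic enzyme that makes NADPH from malate. Me3 had 17.9, 20.7, 19.4 and 19.5 CPM in WT SH, against 13.8, 12.3, 12.8 and 13.5 CPM in KO SH. After MI its levels were 17, 14.2, 17.1 and 14.4 CPM in the WT hearts, against 12, 11.5, 11.5 and 9.98 CPM in the KO hearts. Every KO library was below every WT library of the series. The log2 fold change was -0.56 after sham surgery (SE 0.08, adjusted p = 0.000328, a call) and -0.48 after MI (SE 0.08, adjusted p = 0.00278), both by edgeR. It was the 1 call among the 9 genes of mitochondrial NADPH supply in KO SH (5.01% of all genes), a list whose median log2 fold change was -0.09. In KO MI against WT MI it was also the 1 gene of the list that passed the adjusted p (3.07% of all genes).

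In KO MI against KO SH the same list moved in both directions, with 3 of 9 genes called higher and 1 lower. Of all genes, 7.42% were called in either direction. Me2, another mitochondrial malic enzyme, rose by 0.63 (adjusted p = 0.0111), and Mthfd2 (0.88, adjusted p = 0.0118) and Mthfd1l (0.78, adjusted p = 0.0116), enzymes of mitochondrial folate metabolism, rose as well. Aldh1l2, which makes NADPH from formyl-tetrahydrofolate, fell by 0.66 (adjusted p = 0.0227, all edgeR). A place in this list does not show that an enzyme makes NADPH, and NADPH itself was not measured. Aldh1l2 had 15.4 CPM in KO MI replicate 2 and 29.1 to 37.6 CPM in the other KO MI libraries. Without that replicate its change was -0.44 and that of Me2 was 0.47, both under the fold limit. Mthfd1l lost its call without KO MI replicates 2 and 7 together (0.47, adjusted p = 0.135, edgeR). In WT MI against WT SH 1 of the 9 passed the adjusted p (5.31% of all genes), again Me3 (-0.30, adjusted p = 0.0422, edgeR, up to 0.135 over the alternatives). Of the 6 genes of cytosolic NADPH supply, Me1, the cytosolic malic enzyme, passed the adjusted p in KO MI against WT MI (-0.34, adjusted p = 0.0965, edgeR). That was 1 of 6, against 3.07% of all genes. G6pdx, which starts the pentose phosphate pathway, passed it in KO MI against KO SH (0.40, adjusted p = 0.0615, edgeR). That was also 1 of 6, against 17.5% of all genes. Without KO MI replicates 2 and 7 neither passed, at -0.27 for Me1 (adjusted p = 0.327) and 0.39 for G6pdx (adjusted p = 0.143, both edgeR).

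Of the 11 other peroxiredoxin and thioredoxin genes, 2 were called in KO SH against WT SH, both higher, against 5.01% of all genes in either direction. Txnip, which binds and inhibits thioredoxin, had 166 to 218 CPM in WT SH and 282 to 362 CPM in KO SH (0.75, SE 0.24, adjusted p = 0.0621, edgeR), a call that was lost without any one of WT SH replicates 1, 2 and 3 and KO SH replicates 1, 3 and 4 (adjusted p from 0.103 to 0.141). Sesn2, a sestrin induced by stress, had 1.60 to 1.82 CPM in WT SH and 2.21 to 2.71 CPM in KO SH (0.59, SE 0.14, adjusted p = 0.0168, edgeR). In KO MI against KO SH Txnip fell by 0.78 (adjusted p = 0.0411, edgeR), with 112 to 161 CPM in KO MI replicates 1, 2 and 3 and 348 CPM in replicate 7. The fall reached -1.26 without replicate 7 (adjusted p = 2.14e-05, edgeR). That call was lost without KO SH replicate 3 or KO MI replicate 2 or 3 (adjusted p from 0.105 to 0.125). Of the 16 glutathione and glutaredoxin genes, Mgst1, a microsomal glutathione transferase, was called higher in KO SH (0.84, adjusted p = 0.0477, edgeR), at 0.944 to 1.44 CPM in WT SH and 1.65 to 2.38 CPM in KO SH. The adjusted p was 0.113 to 0.119 without WT SH replicate 1 or 3 or KO SH replicate 2 or 3. Mgst1 was also called higher in WT MI against WT SH (0.95, adjusted p = 0.0453, edgeR, up to 0.168 over the alternatives). The same held in KO MI against KO SH (0.67, adjusted p = 0.0717, edgeR, up to 0.291 over the alternatives). Of all genes, 2.78% were called in WT MI against WT SH and 7.42% in KO MI against KO SH. Gpx3, the secreted glutathione peroxidase, was called higher in KO MI against WT MI (0.62, adjusted p = 0.0646) and against KO SH (0.90, adjusted p = 0.00300, both edgeR). Gpx3 had 37.1, 53.8, 52.3 and 28.8 CPM in KO MI, and the first of these calls was lost without KO MI replicate 2 (0.49) or 3 (0.51) or without WT MI replicate 1, 3 or 4 (0.58 to 0.64), with adjusted p from 0.137 to 0.195. Of the 3 other superoxide dismutase genes, the secreted Sod3 passed the adjusted p, and of the 4 methionine sulfoxide reductases Msrb3 did, both higher in KO MI than in KO SH (0.42, adjusted p = 0.0785, and 0.34, adjusted p = 0.0169, edgeR). In that comparison 17.5% of all genes passed it, in either direction. Without KO MI replicate 2, Sod3 was 0.25 (adjusted p = 0.322) and Msrb3 was 0.23 (adjusted p = 0.0515, both edgeR).

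Of the 8 genes of NRF2 (Nfe2l2) regulation and its targets, 7 had a negative log2 fold change in KO SH against WT SH, with a median of -0.17. Of these, 3 passed the adjusted p, against 7.22% of all genes that passed it and were lower. Of the 3, 1 was called (5.01% of all genes), namely Nqo1, a quinone reductase, at -0.59 (SE 0.13, adjusted p = 0.0126, edgeR). Nqo1 had 4.98, 5.51, 5.01 and 3.80 CPM in WT SH and 2.77 to 3.65 CPM in KO SH, with no overlap. In KO MI it was 0.51 higher than in KO SH (adjusted p = 0.0203, edgeR), and 0.43 to 0.48, under the fold limit, without KO SH replicate 1 or 3 or KO MI replicate 2, and 0.49 without KO MI replicates 2 and 7. Slc7a11, the cystine transporter that feeds glutathione synthesis, had 1 to 8 counts in the 8 sham libraries and 62 to 197 counts in WT MI. In KO MI it had 6, 101, 128 and 116 counts, so that replicate 1 stayed near the sham level. It was called higher after MI in both genotypes (adjusted p = 0.00200 in WT and 0.00219 in KO, edgeR), and no fold is given because of the low counts after sham surgery.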

How the data were processed

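Total RNA of whole ventricles was sequenced as stranded, rRNA-depleted 150 bp read pairs. The deposited table holds RSEM expected counts per gene, which the authors gave without normalization; all 16 columns could be mapped to a library. The methods name Skewer, STAR and RSEM, while the submitters' processing notes name bcl2fastq (2.17), cutadapt (3.4), HISAT2 (2.2.1) and RSEM (1.1.17) on GRCm39, so the pipeline is not certain. The annotation release is not given in the sources used here, nor is the strand setting of the counting. RSEM shares reads that match several genes, so counts of near-identical genes are uncertain. Names, positions and biotypes came from GENCODE M39 and matched 47772 of 51912 identifiers.

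Counts were rounded and analysed in R (4.3.3) with edgeR (4.0.16). The filter kept genes whose counts added up to 10 or more within every group. After TMM scaling, the 16 libraries entered a single quasi-likelihood model with a term for each group. F-tests gave 6 contrasts with Benjamini-Hochberg adjustment over the 20159 genes tested. Exact permutation tests of the 8 libraries of a comparison (two-sided) used log2 of CPM + 0.05. The fit was tested on simulated data. At these depths 3 counts correspond to 0.0577 to 0.0858 CPM. Alternatives covered DESeq2 (1.42.0), scaling, filters, dispersion, a replicate block, an Xist covariate, thresholds and each library left out in turn. Leaving out KO MI replicates 2 and 7 was chosen after seeing the data. The genes, the lists and the tests were chosen with earlier results of these data known. Named besides the 10 genes are genes called in the lists, at most the 3 with the smallest adjusted p per list and contrast, 4 of the 5 most like Nnt, its neighbours within 500 kb, 3 substrain genes and Lrrc10. Aldh1l2, Sod3, Msrb3, Me1 and G6pdx, and the examples of erythroid markers, were named after their values were seen. Of the erythroid markers, Ahsp was not matched. Promoter windows were those of RefSeq on GRCm38.p6, whose coordinates were not compared with those of GRCm39. The other gene most like Nnt is not reported here.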

Additional observations from a re-analysis of the deposited data

Results flagged for a closer look

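In groups of 4 libraries, a library was marked when its gap to the nearest of the others exceeded 0.829 of the group's range (Dixon's test at 95%). Chance marks about 1 in 20 groups, and 6 of 120 groups (30 genes in 4 groups each) were marked. Gpx4 was low in KO MI replicate 7, at 28.0 CPM against 36.8 to 37.6 CPM in the other KO MI libraries. Cat was low in WT SH replicate 4, at 97.4 CPM against 103 to 104 CPM, and high in WT MI replicate 4, at 124 CPM against 99.9 to 103 CPM. Entpd4 was also high in WT MI replicate 4, at 29.6 CPM against 22.8 to 23.3 CPM. Me1 was high in WT SH replicate 2, at 61.8 CPM against 58.1 to 58.6 CPM. Me2 was low in WT MI replicate 3, at 5.74 CPM against 6.6 to 6.74 CPM. WT SH replicate 1, the low library of Nnt, was not marked. What set these libraries apart was not tested.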

How the results depend on the processing

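For Nnt, 134 of 138 alternative values kept direction and side of the threshold. Settings that changed only a threshold reused the main fit, so their fold changes could not differ. WT MI against WT SH passed the threshold without WT SH replicate 1 (range over libraries left out in turn -0.72 to -0.36), and KO MI against KO SH, near 0, changed sign without KO SH replicate 3 or KO MI replicate 2 (-0.26 to 0.047) and without KO MI replicates 2 and 7 (0.064). Of 1827 values of other named genes, 1721 were unchanged in this sense, 52 lost and 32 gained a call and 22 changed sign, all of these with adjusted p over 0.5 and the cause was not tested.

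The number of the 10 genes called with no minimum fold was 5 in KO SH against WT SH and over both surgeries, 1 in KO MI against WT MI and 2 in KO MI against KO SH. Those with adjusted p under 0.1, with each library left out in turn, numbered 3 to 5 in KO SH against WT SH and over both surgeries, 0 to 1 in KO MI against WT MI and in WT MI against WT SH, 0 to 3 in KO MI against KO SH and 0 to 4 in the interaction, and those called numbered 0 to 1 in WT MI against WT SH, in KO MI against KO SH and in the interaction. Fitting only the groups compared gave 6 in KO SH against WT SH, 0 in KO MI against WT MI and 0 in KO MI against KO SH, no filter 1 in KO MI against KO SH, and an adjusted p under 0.05 gave 4 in KO SH against WT SH, 0 in KO MI against WT MI, 1 in KO MI against KO SH and 3 over both surgeries. Without KO MI replicates 2 and 7, 1 was called in KO MI against KO SH, and 1 passed the adjusted p in the interaction.

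Same-numbered libraries did not deviate together on average (mean r 0.02 over 21 pairs, -0.01 for other pairs). A mean over all genes cannot show whether the numbers mark a pairing. With the replicate block, 2 passed in KO MI against WT MI, 1 in WT MI against WT SH and 2 in the interaction. In KO MI against KO SH 1 was called. Prdx3 changed sign in KO MI against WT MI (0.011) and KO MI against KO SH (0.027). Txn2 did so in KO MI against WT MI (0.0083). The number 7 occurs only in KO MI, so the block fits KO MI replicate 7 by a term of its own. It thus largely repeats leaving that library out and is not a separate check. For Gpx1 in KO MI against KO SH, the block gave 0.61 and leaving out KO MI replicate 7 gave 0.64.

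Over libraries left out in turn, values that changed sign ranged from -0.10 to 0.040 (Txnrd2) and -0.042 to 0.049 (Idh2) in KO SH against WT SH, -0.084 to 0.031 (Txn2) in KO MI against WT MI, -0.11 to 0.036 (Txnrd2), -0.0057 to 0.10 (Cat) and -0.058 to 0.033 (Idh2) in WT MI against WT SH, and -0.22 to 0.015 (Prdx3) and -0.071 to 0.012 (Prdx5) in KO MI against KO SH. Idh2 was 0.021 in WT MI against WT SH with the Xist covariate. Without KO MI replicates 2 and 7, Prdx3 (0.045) and Txn2 (0.033) changed sign in KO MI against WT MI, and Sod2 (0.068), Prdx3 (0.061) and Prdx5 (0.025) in KO MI against KO SH.

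Over all genes, calls with each library left out numbered 661 to 1217 (1010 with all) in KO SH against WT SH. They numbered 227 to 575 (348) in KO MI against WT MI and 283 to 632 (560) in WT MI against WT SH. In KO MI against KO SH they numbered 885 to 2180 (1495), and in the interaction 2 to 840 (5). In the interaction, leaving out WT SH replicate 4 gave 169, DESeq2 289 and the block 689. The 840 came without KO MI replicate 7, the library that the block fits by its own term.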
